A study of Mus musculus with 4 samples.

Results

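Met, the receptor tyrosine kinase for hepatocyte growth factor, and Spry1, an intracellular inhibitor of receptor tyrosine kinase signalling, were described in cultured mouse myoblasts with or without forced Twist2. The rule named 10 genes of this signalling system, taken by symbol from a table of 3760 genes, and 6 were found: the receptors Met, Fgfr1 and Egfr and the inhibitors Spry1, Spry2 and Dusp6. Fgfr4, Pdgfra, Pdgfrb and Kit were not analysed here. The cells were myoblasts that the labels call Twist2-positive, from skeletal muscle of adult C57BL/6 mice, grown on matrigel. They received retrovirus for 24 h and were then kept for 24 h in a growth medium containing 20% fetal bovine serum. The virus carried GFP in the control cells and Twist2-IRES-GFP in the others, so all cells were infected with a GFP vector. Cells were harvested at that point or after 5 days in differentiation medium with 2% horse serum. The 4 groups, each with 1 library, are called GFP growth, GFP differentiation, Twist2 growth and Twist2 differentiation below. The labels do not say how many animals the cells came from.

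Receptor tyrosine kinases bind growth factors outside the cell and signal through adaptors, RAS, RAF and ERK, and through PI3K and AKT. Sprouty proteins and the ERK phosphatase Dusp6 are made in response to this signal and limit it. In muscle, hepatocyte growth factor acts through Met on satellite cells, the muscle stem cells, and Spry1 is known for its part in their return to quiescence.

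The libraries held between 9235281 and 12362290 reads, and values are in CPM, the reads of a gene scaled to a common library total. Ranges in parentheses after a CPM value are exact Poisson 95% intervals of the reads. Ratios are log2 of CPM + 1, and their parentheses hold exact conditional binomial 95% intervals of the read ratio without the added 1. All intervals cover counting error only. With 1 library a group no difference has a replicate check, no p-value is given, and a library effect and a condition effect cannot be told apart. Twist2 itself was at 0.103 and 0 CPM in the GFP growth and differentiation libraries and at 1438 and 674 CPM in the Twist2 ones, so the control cells that the labels call Twist2-positive had 1 and 0 Twist2 reads. Of 10 myoblast markers 8 were listed, including Myod1, Pax7 and Des, and each had reads in every library. Their levels differed, with sums of 6137 and 2819 CPM in the GFP and Twist2 growth libraries. In the differentiation libraries the sums were 17302 and 9944 CPM, most of it Des, Itga7 and Chrna1. These and Myog were lower with Twist2 there, and Cdh15 was near equal. Pax7 (4.01 and 34.6 CPM), Vcam1 (18.0 and 48.9 CPM) and Myod1 (810 and 1068 CPM) were higher with Twist2. Unlike the sums, Pax7 and Vcam1 were lower after differentiation in both kinds of cells. In growth medium Myod1 had 1184 and 547 CPM and Myog 76.4 and 3.52 CPM, while Vcam1 had 101 and 115 CPM. A gene is counted below as higher or lower, or called, when CPM + 1 differed at least 2-fold and the larger of its values was at least 10 CPM. Some results are also given with libraries scaled by median-of-ratios size factors or to their unlisted reads, those of genes that are not in the table. Only genes that had passed a 2-fold filter against the GFP growth medium library are listed, so these shares do not stand for all expressed genes. Of the comparisons here, that filter used GFP differentiation and growth medium, but not Twist2 differentiation or differentiation medium. Listing also took 10 CPM in 2 or more libraries. A gene that reached it only in the 2 libraries of 1 kind was listed through these, which set its order against the other 2.

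The sequences before the starts of Met and Spry1 are shown because Twist2 is a basic helix-loop-helix factor, a class that binds the E-box, CANNTG, which reads the same on both strands. They are from RefSeq on GRCm38.p6, on the plus strand, with E-boxes in capitals. For Spry1 the 250 bases before the gene start are given (chr3:37639697-37639946). For Met 30 bases are given (chr6:17463819-17463848), which lie before the RefSeq start but within an exon of 1 other Met transcript in GENCODE M21 and partly within an exon of another.
Spry1: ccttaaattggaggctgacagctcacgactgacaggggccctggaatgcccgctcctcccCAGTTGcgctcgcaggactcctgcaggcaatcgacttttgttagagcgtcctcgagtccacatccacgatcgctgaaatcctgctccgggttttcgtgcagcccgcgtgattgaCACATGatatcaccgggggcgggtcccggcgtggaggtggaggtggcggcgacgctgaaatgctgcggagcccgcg
Met: gggacgaacagaCACGTGctggggcgggta
The E-boxes of Spry1 begin 190 and 76 bases before the gene start. That of Met begins 126 bases before the RefSeq start, which lies downstream of the GENCODE start given below (17463800). The windows of Spry2 and Dusp6 held 1 each and that of Egfr held 0, while Fgfr1 had no entry in the table. Of 32851 windows of 250 bases in the RefSeq table, 66.2% held at least 1 CANNTG, so an E-box does not set these genes apart. No binding was measured in these libraries.

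Met transcripts were most abundant in GFP cells in growth medium, lower in Twist2 cells in growth medium and lowest after differentiation of either. Met (chromosome 6, 17463800 to 17573980, plus strand, GRCm38) had 336 CPM (325 to 348) in the GFP growth library, 27.4 CPM (24.1 to 31.0) in the GFP differentiation library, 131 CPM (125 to 138) in the Twist2 growth library and 27.2 CPM (24.4 to 30.2) in the Twist2 differentiation library. The growth libraries thus stood apart from each other and above both differentiation libraries, whose intervals overlapped. After differentiation Met was 12.3-fold lower in GFP cells (10.8 to 14.0, log2 ratio -3.57) and 4.83-fold lower in Twist2 cells (4.28 to 5.45, log2 ratio -2.23). In growth medium it was 2.56-fold lower with Twist2 (2.41 to 2.73, log2 ratio -1.35). In differentiation medium the log2 ratio of Twist2 to GFP cells was -0.01 (-0.25 to 0.23), but -0.59 when scaled to the unlisted reads. The Twist2 response to differentiation minus the GFP response was 1.34 on the log2 scale (1.09 to 1.60), and it was 0.81 under that scaling. Fewer cells that express a gene and less RNA of it per cell cannot be told apart in these bulk libraries.

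Markers of other cell states also differed between the libraries. For differentiated muscle the summed level of 10 such genes, among them Myh3, Acta1 and Ttn, was 604 CPM and 59.6 CPM in the GFP and Twist2 growth libraries and 73415.5 CPM and 11279 CPM in the differentiation libraries. The 4 listed of 11 fibroblast and fibro-adipogenic progenitor markers summed to 838 and 3103 CPM in the growth libraries and to 566 and 8821 CPM after differentiation, nearly all of it Col3a1. Unlike this sum, Ly6a and Col1a2 were lower after differentiation of Twist2 cells (log2 ratios -2.97 and -2.11), while Dcn was higher there (10.6 and 64.6 CPM). Between the GFP and Twist2 differentiation libraries Col1a2 had 5.74 and 3.15 CPM, Dcn 1.19 and 64.6 CPM, and Ly6a 0 and 3.32 CPM. The 6 listed of 10 pericyte and smooth muscle markers summed to 594 and 310.0 CPM in growth medium and to 8114 and 5524 CPM after differentiation, for the GFP and Twist2 cells. Acta2 made up most of the sum after differentiation (7948 and 5050.1 CPM), while Rgs5 had 51.7 and 85.1 CPM in growth medium and 0.108 and 4.69 CPM after differentiation, and Mcam 48.1 and 19.0 CPM and then 15.7 and 7.60 CPM. No endothelial or immune marker was analysed here, and of the Schwann cell markers only Erbb3 was. The part of these in the results was not tested.

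Fgfr1, a receptor for fibroblast growth factors, was lower after differentiation in both kinds of cells. It had more CPM with Twist2 in both media, short of 2-fold in growth medium. Fgfr1 (chromosome 8, 25513654 to 25575718, plus strand) had 381 CPM (369 to 394) in GFP growth, 104 CPM (97.2 to 110) in GFP differentiation, 679 CPM (663 to 694) in Twist2 growth and 297 CPM (288 to 307) in Twist2 differentiation medium. None of the 4 intervals overlapped. The log2 ratio of differentiation to growth medium was -1.87 (-1.98 to -1.78) in GFP cells and -1.19 (-1.25 to -1.13) in Twist2 cells. Twist2 cells had a log2 ratio to GFP cells of 0.83 (0.77 to 0.89) in growth and 1.51 (1.42 to 1.62) in differentiation medium. Some of these calls depended on scaling. The growth medium ratio passed 2-fold with size factors (1.07), and when scaled to the unlisted reads the Twist2 differentiation ratio (-0.93) and the differentiation medium ratio (0.92) no longer did. An antisense gene, Gm16159, shares 1.66% of the Fgfr1 exon bases.

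Egfr, the epidermal growth factor receptor, was low throughout and highest in differentiated Twist2 cells. Egfr (chromosome 11, 16752203 to 16918158, plus strand) had 7.29 CPM (71 reads) in GFP growth, 1.95 CPM (18 reads) in GFP differentiation, 13.5 CPM (149 reads) in Twist2 growth and 20.1 CPM (248 reads) in Twist2 differentiation medium. Both Twist2 libraries lay above both GFP libraries. Egfr reached 10 CPM in the Twist2 libraries only, so it was listed through them and this order was set by the filter. The responses to differentiation had opposite signs, with a log2 ratio of -1.49 (-2.74 to -1.14) in GFP cells, where no library reached 10 CPM, and 0.54 (0.28 to 0.88) in Twist2 cells. In differentiation medium Egfr was 10.3-fold higher with Twist2 (6.38 to 17.7), and in growth medium the log2 ratio was 0.80 (0.47 to 1.31), or 1.02 with size factors.

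**Figure D1:**
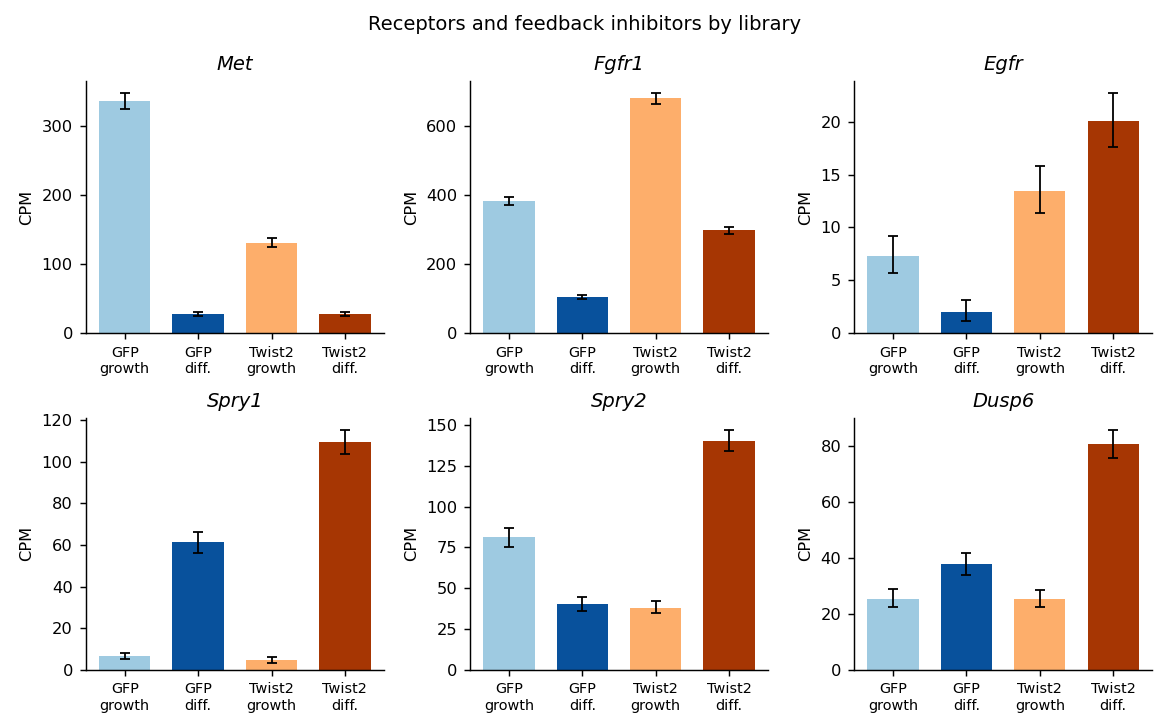
CPM of the 6 genes in each of the 4 libraries; bars are the value of 1 library and error bars are exact Poisson 95% intervals of its reads (counting error only). Met is at 336 CPM in GFP growth medium and at about 27 CPM in both differentiation libraries, and Spry1 is at 109 CPM in the Twist2 differentiation library against 4.52 CPM in Twist2 growth medium.

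Spry1 had the opposite pattern to Met across media, with few reads in growth medium and many after differentiation. It reached 10 CPM in the differentiation libraries only, so the filter listed it through them and set this direction. Spry1 (chromosome 3, 37639947 to 37644598, plus strand) had 6.47 CPM (63 reads, 4.97 to 8.27) in GFP growth, 61.2 CPM (56.2 to 66.4) in GFP differentiation, 4.52 CPM (50 reads, 3.35 to 5.96) in Twist2 growth and 109 CPM (104 to 115) in Twist2 differentiation medium. The growth libraries overlapped in their intervals, and the differentiation libraries did not. Spry1 was 9.46-fold higher after differentiation in GFP cells (7.28 to 12.5, log2 ratio 3.06) and 24.2-fold higher in Twist2 cells (18.3 to 32.8, log2 ratio 4.32). The Twist2 response minus the GFP response was 1.26 on the log2 scale (0.80 to 1.91), or 0.71 when scaled to the unlisted reads. With Twist2 the log2 ratio to GFP cells was -0.44 (-1.08 to 0.04) in growth and 0.83 (0.70 to 0.98) in differentiation medium, short of 2-fold in each, and the latter was 0.24 under that scaling. The annotated gene Gm42922 on the opposite strand shares 24.4% of the Spry1 exon bases and covers the window printed above. Because the strand setting of the counting is not given in the sources used here, reads of the pair cannot be told apart.

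Spry2, another Sprouty inhibitor, was higher after differentiation of Twist2 cells and was not called in GFP cells, where its ratio was below 0. Spry2 (chromosome 14, 105891947 to 105896819, minus strand) had 81.1 CPM (75.5 to 86.9) in GFP growth, 40.1 CPM (36.1 to 44.4) in GFP differentiation, 38.0 CPM (34.5 to 41.9) in Twist2 growth and 140.3 CPM (134 to 147) in Twist2 differentiation medium. The library of differentiated Twist2 cells was thus highest, and GFP differentiation and Twist2 growth medium overlapped. In GFP cells Spry2 had a log2 ratio of -0.999 (-1.20 to -0.84), just short of the threshold and past it with a pseudocount of 0.1 CPM (-1.02), but -0.65 with size factors and -0.22 when scaled to the unlisted reads, while in Twist2 cells it was 3.69-fold higher after differentiation (3.32 to 4.11). The Twist2 response minus the GFP response was 2.86 (2.67 to 3.14), the largest among the 6 genes. With Twist2, Spry2 was 2.13-fold lower in growth medium (1.89 to 2.40; log2 ratio -1.07, but -0.83 with size factors) and 3.50-fold higher in differentiation medium (3.13 to 3.93). Dusp6 (chromosome 10, 99263231 to 99267489, plus strand), a phosphatase that inactivates ERK, had 25.3 CPM in GFP growth, 37.6 CPM in GFP differentiation, 25.4 CPM in Twist2 growth and 80.5 CPM in Twist2 differentiation medium. Both growth libraries were alike within counting error (log2 ratio 0.00, -0.25 to 0.25). Dusp6 was 3.17-fold higher after differentiation of Twist2 cells (2.77 to 3.63), and its log2 ratio in GFP cells was 0.55 (0.33 to 0.81). That GFP ratio was 1.33 when scaled to the unlisted reads, and the ratio of Twist2 to GFP cells in differentiation medium went from 1.08 to 0.49.

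Spry4 followed Spry1 and Dusp6 in being highest in differentiated Twist2 cells. It had 7.49 CPM in GFP growth, 13.4 CPM in GFP differentiation, 10.3 CPM in Twist2 growth and 33.3 CPM in Twist2 differentiation medium. To compare different genes, CPM was divided by the kilobases of all annotated exons of a gene. The transcripts expressed can be shorter than that, which the intervals do not cover. Per kilobase of exon, Spry2 was the highest Sprouty in growth medium, at 38.8 CPM per kb in GFP and 18.2 CPM per kb in Twist2 cells. Spry1 had 2.22 and 1.55 CPM per kb there. After differentiation of GFP cells Spry1 (21.1 CPM per kb) and Spry2 (19.2 CPM per kb) were near each other, and in Twist2 cells Spry2 (67.2 CPM per kb) was above Spry1 (37.6 CPM per kb).

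In the GFP cells, differentiation went with lower CPM for 1511 of 3694 listed genes with at least 10 CPM (40.9%) and with higher CPM for 1205 (32.6%), 73.5% in all. Among the 5 of 6 genes that reached 10 CPM there, Met and Fgfr1 were lower and Spry1 was higher. In the Twist2 cells 24.5% of 3715 listed genes were lower and 26.5% higher (51.0% in all), and of the 6 genes Met and Fgfr1 were lower and Spry1, Spry2 and Dusp6 higher. In growth medium Twist2 cells had 10.6% of 3514 genes lower and 5.21% higher than GFP cells (15.8% in all), with Met and Spry2 among the lower. In differentiation medium 25.2% of 3437 genes were lower and 25.4% higher with Twist2 (50.6% in all), and Fgfr1, Egfr, Spry2 and Dusp6 were higher. These comparisons share libraries and are not independent of each other. Scaling to the unlisted reads shifted the median log2 ratio of all listed genes by 0.78, 0.25, -0.05 and -0.57 in this order, and size factors shifted it by 0.34, 0.04, 0.23 and -0.06. Higher genes made up 44.4%, 51.9%, 33.0% and 50.2% of the calls, which became 69.8%, 66.8%, 29.2% and 24.3% under the first of these scalings and 57.8%, 54.4%, 53.0% and 47.0% under the second.

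The other receptors were taken from a list of 59 receptor tyrosine kinase names, of which 17 were in the table. Per kilobase of exon, Axl, a receptor for Gas6, was highest in 3 libraries, at 151 CPM per kb in GFP growth, 219 in Twist2 growth and 80.4 in Twist2 differentiation medium. Musk, the muscle-specific kinase of the neuromuscular junction, was highest in the GFP differentiation library, at 92.9 CPM per kb. Met ranked 3 of 17 in GFP growth medium at 43.8 CPM per kb (42.3 to 45.3), above the overlapping pair Epha2 (39.3) and Fgfr1 (38.6). By CPM alone Fgfr1 was above Met there (381 against 336 CPM), so such close ranks depend on the exon lengths used. Met ranked 6 in Twist2 growth medium (17.1 CPM per kb), 11 in GFP differentiation medium (3.57) and 14 in Twist2 differentiation medium (3.54, 3.17 to 3.94), where its interval overlapped that of Ephb4 (3.96). Met made up 10.3% of the summed level per kilobase of the 17 receptors in GFP growth medium and 3.64% in Twist2 growth medium, and 1.11% and 1.22% after differentiation.

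**Figure D2:**
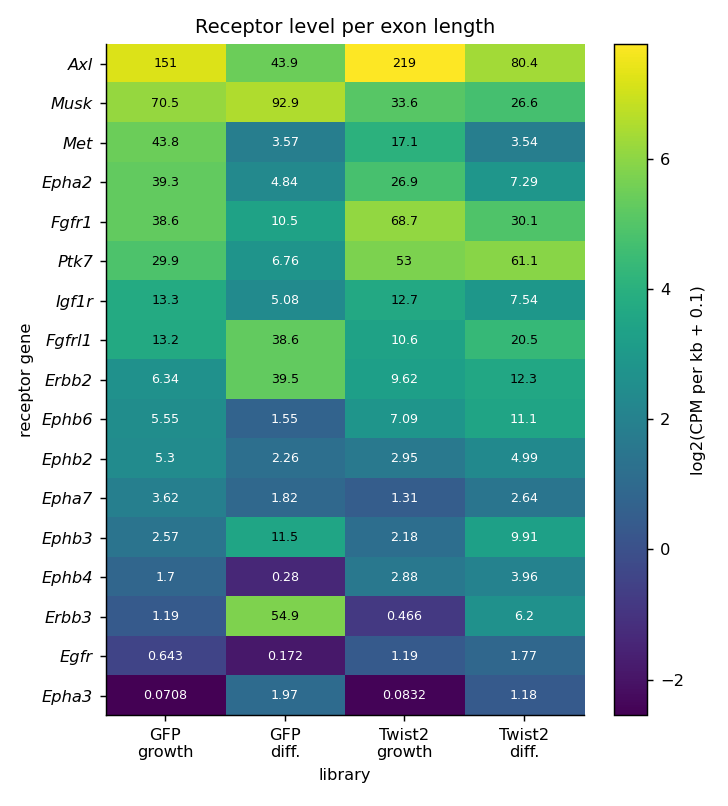
Level of the 17 listed receptor tyrosine kinases (rows) in the 4 libraries (columns), with the CPM per kilobase of exon printed in each cell and the colour giving log2 of that value + 0.1. Axl and Musk are at the top in GFP growth medium (151 and 70.5), and Met goes from 43.8 there to 3.57 after differentiation.

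Differentiation of GFP cells divided the receptors into a lower and a higher set. Of 15 receptors with at least 10 CPM, 8 were lower and 5 higher, against the 40.9% and 32.6% of all listed genes, and the median log2 ratio of the 17 was -1.38 against -0.40 for all genes. The lower set was Met, Epha2 (-2.97), Ptk7 (-2.12), Fgfr1, Axl (-1.78), Ephb6 (-1.68), Igf1r (-1.38), the insulin-like growth factor 1 receptor, and Ephb2 (-1.20). The higher set was Erbb3 (5.34), Epha3 (3.49), Erbb2 (2.60), Ephb3 (2.10) and Fgfrl1 (1.53). Epha3 had 6 reads in GFP growth medium, and the interval of its read ratio without the added 1 was 3.64 to 6.26. Erbb3 and Epha3 reached 10 CPM in the differentiation libraries only, so the filter set their direction in both kinds of cells. Erbb3 and Erbb2 form the neuregulin receptor pair of muscle, and Fgfrl1 is an FGF receptor without a kinase domain. Relative to the median of all genes the receptor median stood at -0.98, and at -0.97 and -0.96 under the other scalings, but the counts became 7 lower and 5 higher with size factors and 4 lower and 6 higher when scaled to the unlisted reads.

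In Twist2 cells fewer receptors passed 2-fold, as was so for all listed genes (51.0% against 73.5%). The filter used the GFP comparison but not this one, so these counts do not compare the responses of the cells. Of 17 receptors 4 were lower, namely Met, Epha2 (-1.85), Axl (-1.44) and Fgfr1, and 3 were higher, namely Erbb3 (3.33), Epha3 (2.71) and Ephb3 (2.11), beside 24.5% and 26.5% of all listed genes. Epha3 had 8 reads in Twist2 growth medium, with an interval of 2.81 to 5.07. Erbb3 had 7.18 CPM in GFP growth, 330 CPM in GFP differentiation, 2.80 CPM in Twist2 growth and 37.3 CPM in Twist2 differentiation medium. Its level in differentiated Twist2 cells was thus between those of the growth libraries and that of differentiated GFP cells. Erbb2 had 33.0 CPM in GFP growth, 206 CPM in GFP differentiation, 50.1 CPM in Twist2 growth and 64.2 CPM in Twist2 differentiation medium, so its Twist2 response (0.35) was 2.25 lower on the log2 scale than its GFP response. Ephb3 differed little between the cells, with log2 ratios of 2.10 and 2.11. Ptk7, a kinase-inactive receptor of Wnt signalling, had 161 CPM in GFP growth, 36.4 CPM in GFP differentiation, 286 CPM in Twist2 growth and 329 CPM in Twist2 differentiation medium. It was lower in the differentiated GFP cells than in each of the other 3 libraries. With the unlisted reads as the scale, 5 receptors were higher and 3 lower in Twist2 cells.

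**Figure D3:**
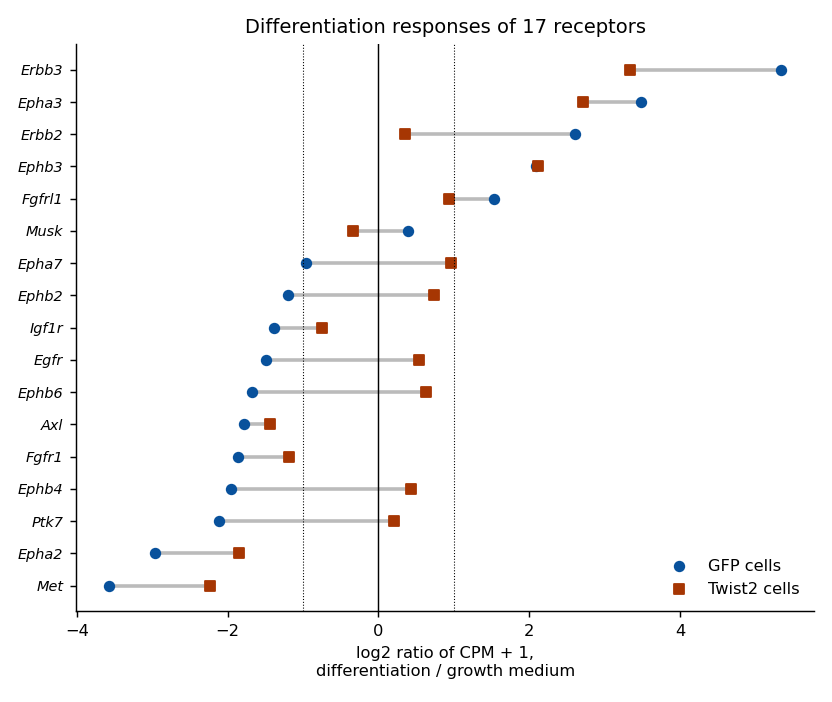
Log2 ratio of CPM + 1, differentiation to growth medium, of 17 receptor tyrosine kinases in GFP cells (circles) and Twist2 cells (squares), 1 library a group; dotted lines mark 2-fold. Met is lowest in both (-3.57 and -2.23) and Erbb3 is highest in both (5.34 and 3.33). Egfr, Epha7, Ephb2, Ephb4, Ephb6 and Ptk7 lie below 0 in GFP cells and above it in Twist2 cells, and Musk has the reverse order (0.40 and -0.34).

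Between the cells in growth medium, 3 of 15 receptors were lower with Twist2, namely Epha7 (-1.40), Met (-1.35) and Musk (-1.06), and 0 were higher, beside 10.6% and 5.21% of all genes. With size factors 2 were lower and 3 higher. In differentiation medium 6 of 17 were higher with Twist2 and 3 lower, beside 25.4% and 25.2% of all genes. The higher were Ptk7 (3.14), Ephb4 (3.07), Egfr (2.84), Ephb6 (2.65), Fgfr1 (1.51) and Ephb2 (1.12), and the lower were Erbb3 (-3.11), Musk (-1.80) and Erbb2 (-1.66). Ephb4 and Egfr reached 10 CPM in the Twist2 libraries only, so the filter set their order and the count of higher receptors rests partly on it. Scaled to the unlisted reads, 4 were higher and 5 lower, and the receptor median stood at 0.60 relative to all genes, as compared with 0.62 for size factors. Musk had 266 CPM in GFP growth, 351 CPM in GFP differentiation, 127 CPM in Twist2 growth and 100.3 CPM in Twist2 differentiation medium, and was thus lower in both Twist2 libraries than in both GFP libraries.

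More of the listed ligands were lower than higher after differentiation of GFP cells, as was so for all listed genes. The table held 23 of 72 ligand names, and Hgf, the ligand of Met, was not analysed here. Of 20 ligands with at least 10 CPM in the GFP comparison, 11 were lower and 6 higher, beside 40.9% and 32.6% of all genes, and these counts were 10 and 7 with size factors and 9 and 7 when scaled to the unlisted reads. Lower ligands included Efnb2 (-4.09), a ligand of Eph receptors, Efna5 (-2.91), Pgf (-2.59), Pros1 (-2.58), which encodes protein S, Csf1 (-2.39), Pdgfa (-1.99), Pdgfc (-1.82) and Kitl (-1.82), the ligand of Kit. The higher genes of the list were Igf2 (2.79), Fgf13 (2.01), Hbegf (1.83), Igf1 (1.74), Fgf11 (1.65) and Fgf7 (1.29), of which Fgf13 and Fgf11 encode FGF homologues that stay in the cell and are counted here by family only. Efna4 (-1.86) and Il34 (-1.54) were also lower, and both reached 10 CPM in the growth libraries only, so the filter set their direction.

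The insulin-like growth factor Igf1 was lower with Twist2 in both media, and Igf2 was lower in growth medium. Igf2 had 1252 CPM in GFP growth, 8642 CPM in GFP differentiation, 211 CPM in Twist2 growth and 4986 CPM in Twist2 differentiation medium. Igf1 had 14.7, 51.3, 1.26 and 22.0 CPM in the same order. Both were thus lowest in Twist2 growth medium and highest in GFP differentiation medium, with log2 ratios of Twist2 to GFP cells of -2.56 and -2.79 before and -0.79 and -1.19 after differentiation. In Twist2 cells 5 of 22 ligands were higher after differentiation, led by Igf2 (4.55) and Igf1 (3.34), followed by Fgf11 (2.33), Fgf13 (2.25) and Pdgfc (1.03), and 6 were lower, among them Kitl (-2.84) and Csf1 (-1.97), which is near the 26.5% and 24.5% of all genes. Pdgfc, a ligand of the Pdgfra receptor, had 82.8 CPM in GFP growth, 22.7 CPM in GFP differentiation, 85.6 CPM in Twist2 growth and 175 CPM in Twist2 differentiation medium. It was lower in GFP and higher in Twist2 cells after differentiation, which held for 1.01% of 3649 listed genes and for 3 of 85 genes of all 6 lists. The reverse held for 6 of the 3649 genes (0.164%).

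In growth medium 4 of 23 ligands were higher with Twist2, beside 5.21% of all genes, and 4 were lower, beside 10.6%. The higher were Figf (2.23), the older symbol of Vegfd, Angpt1 (1.69), a ligand of Tek, Ereg (1.42), a ligand of Egfr, and Fgf7 (1.21), and the lower were Igf1, Igf2, Pdgfb (-2.05) and Fgf11 (-1.90). In differentiation medium 10 of 20 were higher and 4 lower, beside 25.4% and 25.2% of all genes, and 9 were higher and 7 lower when scaled to the unlisted reads. Angpt4 (3.97), Efna5 (3.30), Pros1 (3.16), Efnb2 (3.14), Figf (3.09), Pdgfc (2.89), Pgf (2.45), Ereg (2.44), Angpt1 (1.76) and Pdgfa (1.30) were higher, and Hbegf (-1.31), Pdgfb (-1.26), Fgf11 (-1.23) and Igf1 were lower. Angpt4 had 1 read in the GFP differentiation library, with an interval of 4.75 to 12.56. Figf, Ereg and Angpt4 reached 10 CPM in the Twist2 libraries only, and Pdgfb in the GFP libraries only. The filter thus set their order in both media, and the ligand counts rest partly on it. Vegfb had log2 ratios from 0.17 to 0.95 over the 4 comparisons and was not called in any.

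Feedback inhibitors had no common direction in GFP cells. Of 32 names 15 were listed, and after differentiation 5 were higher, namely Dusp8 (3.52), Spry1, Dusp14 (2.73), Pea15a (1.62) and Dusp16 (1.42), and 5 were lower, namely Errfi1 (-2.71), Dusp10 (-1.69), Lrig3 (-1.51), Dusp4 (-1.47) and Spred1 (-1.12), near the 32.6% and 40.9% of all genes. Errfi1 binds and inhibits Egfr, Lrig1 and Lrig3 are membrane proteins that act on receptors, and Spred1 is a Sprouty-related inhibitor of RAS signalling. The Dusp genes are counted here by family, whichever kinase they act on. In Twist2 cells 6 of 15 were higher, the 3 Sprouty genes, Dusp6, Dusp14 (1.39) and, just past the threshold, Dusp8, and 3 were lower, namely Errfi1 (-1.92), Dusp10 (-1.46) and Rasa2 (-1.21), beside 26.5% and 24.5% of all genes. Spry1 thus had the highest ratio of the list in Twist2 cells and ranked behind Dusp8 in GFP cells. Both reached 10 CPM in the differentiation libraries only, so the filter set their direction. Dusp8 had 4.72 CPM in GFP growth, 64.8 CPM in GFP differentiation, 7.95 CPM in Twist2 growth and 16.9 CPM in Twist2 differentiation medium. Scaled to the unlisted reads, 7 were higher and 1 lower in GFP cells, and 6 higher and 2 lower in Twist2 cells.

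More inhibitors were called between the cells after differentiation than before, as was so for all listed genes (50.6% against 15.8%). In growth medium Spry2 was the 1 gene of 13 called lower with Twist2 and 0 were called higher, while Lrig1 had a log2 ratio of 0.91. With size factors the count was 1 higher and 0 lower. In differentiation medium 6 of 15 were higher, namely Lrig1 (2.25), Spry2 (1.78), Dusp4 (1.69), Lrig3 (1.50), Spry4 (1.25) and Dusp6 (1.08), and 4 were lower, namely Dusp8 (-1.88), Dusp16 (-1.51), Dusp14 (-1.48) and Rasa2 (-1.27). Scaled to the unlisted reads, these counts were 3 and 5. Lrig1 had 127 CPM in GFP growth, 70.9 CPM in GFP differentiation, 240 CPM in Twist2 growth and 342 CPM in Twist2 differentiation medium, so both Twist2 libraries lay above both GFP libraries.

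**Figure D4:**
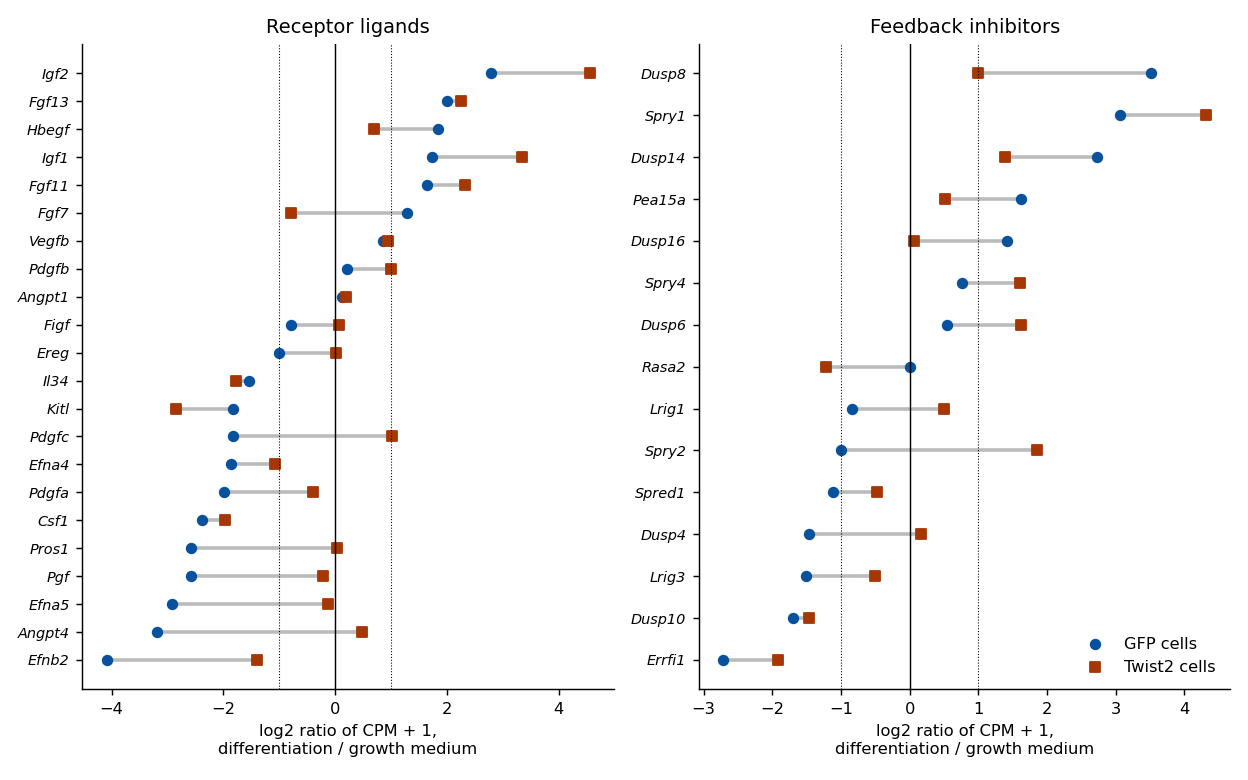
Log2 ratio of CPM + 1, differentiation to growth medium, of 22 receptor ligands (left) and 15 feedback inhibitors (right) in GFP cells (circles) and Twist2 cells (squares), 1 library a group; dotted lines mark 2-fold. Igf2 and Spry1 have the highest ratios in Twist2 cells (4.55 and 4.32), and Spry2 goes from -0.999 in GFP cells to 1.86 in Twist2 cells.

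Among co-receptors and proteases of this system, Gfra1 and Plat were lower after differentiation of GFP cells and higher after that of Twist2 cells. Of 28 names 13 were listed. In GFP cells 8 were lower, led by Gfra1 (-4.03), the GDNF co-receptor that signals with Ret, and Gpc6 (-3.93), and 5 were higher, led by the neuropilin Nrp2 (3.29) and the glypican Gpc4 (3.27), beside 40.9% and 32.6% of all genes. These counts were 6 and 5 under both other scalings. Nrp2 reached 10 CPM in the differentiation libraries only, so the filter set its direction. In Twist2 cells 6 were higher, led by Nrp2 (4.03), Lrp4 (2.10), the agrin receptor that works with Musk, Gpc1 (2.05) and Gpc4 (1.96), and 0 were lower, beside 26.5% and 24.5% of all genes. Gfra1 had 174 CPM in GFP growth, 9.75 CPM in GFP differentiation, 135 CPM in Twist2 growth and 332 CPM in Twist2 differentiation medium. Plat, the tissue plasminogen activator, had 11.3, 0.650, 52.2 and 156 CPM in the same order, with 6 reads in the GFP differentiation library. Both were thus lowest in differentiated GFP cells and highest in differentiated Twist2 cells. In differentiation medium 9 of 13 were higher with Twist2, including Plat (6.58), Gfra1 (4.96), Gpc6 (4.64) and Nrp1 (4.16), and 2 were lower, beside 25.4% and 25.2% of all genes. In growth medium Plat (2.11) was the 1 higher and Lrp4 (-1.75) the 1 lower of 12 genes, beside 5.21% and 10.6% of all genes.

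Among adaptors and kinases of the ERK and PI3K cascades, Gab2 was higher and Pik3cd lower after differentiation of either cells. Of 51 names 18 were listed, and in growth medium 0 of 18 were called higher or lower with Twist2, beside 5.21% and 10.6% of all genes. After differentiation of GFP cells 8 were higher, among them the adaptor Gab2 (2.22), Araf (1.41) and Akt2 (1.39), and 5 were lower, among them the PI3K subunit Pik3cd (-1.87), beside 32.6% and 40.9% of all genes. The GFP counts were 9 and 2 with size factors, and 9 and 1 when scaled to the unlisted reads. In Twist2 cells 3 of 17 were higher, namely Stat3 (1.57), Gab2 (1.51) and Pik3r3 (1.47), and 6 were lower, led by Pik3cd (-2.36), beside 26.5% and 24.5% of all genes, and these counts were 6 and 4 when scaled to the unlisted reads. In differentiation medium Rps6ka6 (-2.44), Rps6ka3 (-1.94), Braf (-1.74) and Rras2 (-1.17) were lower with Twist2 and 1 of 17 was higher, Mapk3, which encodes ERK1 (1.02) and was named after its value was seen, beside 25.2% and 25.4% of all genes. With size factors 0 were higher and 5 lower, and when scaled to the unlisted reads 0 were higher and 11 lower. Rps6ka6 reached 10 CPM in the GFP libraries only and Pik3cd in the growth libraries only, so the filter set these orders.

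Genes known to respond to ERK signalling were higher in differentiated Twist2 than in differentiated GFP cells. Of 16 names 6 were listed, and 5 were called higher there, beside 25.4% of all genes: Ccnd1 (3.04), which encodes cyclin D1, Fosl1 (2.33), Ier2 (2.14), Fos (1.40) and Egr1 (1.17). The count was 3 when scaled to the unlisted reads. In growth medium 0 of 6 were called, beside 15.8% of all genes. After differentiation of GFP cells Ccnd1 (-4.50), Fosl1 (-4.42) and Myc (-1.99) were lower and 0 were higher, beside 40.9% and 32.6% of all genes (higher: 2 with size factors, and 3 when scaled to the unlisted reads), while in Twist2 cells Fos (3.01), Ier2 (2.38) and Egr1 (1.63) were higher and Fosl1 (-2.57), Myc (-2.12) and Ccnd1 (-1.52) lower. Egr1, named after its values were seen, had 103 CPM in GFP growth, 149 CPM in GFP differentiation, 108 CPM in Twist2 growth and 336 CPM in Twist2 differentiation medium. It was thus highest in differentiated Twist2 cells, as Dusp6 was.

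The genes whose profile over the 4 libraries was nearest to that of Met or Spry1 were found by Euclidean distance between profiles of log2(CPM + 1), each centred on its own mean, among 3759 other genes. Adam8, a membrane metalloprotease, was nearest to Met at 0.54, followed by Dlx3 (0.73), Cobll1 (0.79), 4930503L19Rik (0.80) and Gbp4 (0.81), where the median distance of all genes was 2.89. Adam8 had 20.4 CPM in GFP growth, 1.52 CPM in GFP differentiation, 12.7 CPM in Twist2 growth and 1.70 CPM in Twist2 differentiation medium. Srpx2, a secreted sushi-repeat protein, was nearest to Spry1 at 0.24, with 15.3, 113, 10.1 and 194 CPM in the same order. Msmo1 (0.67), Fdps (0.70), Nsdhl (0.77) and Tmem229b (0.78) followed, with a median distance of 4.38 over all genes. Msmo1 had 23.4, 310.0, 22.1 and 299 CPM, and so differed from Spry1 in that its differentiation libraries were near each other. With 4 points per profile, many genes lie close together and likeness is a description only.

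**Figure D5:**
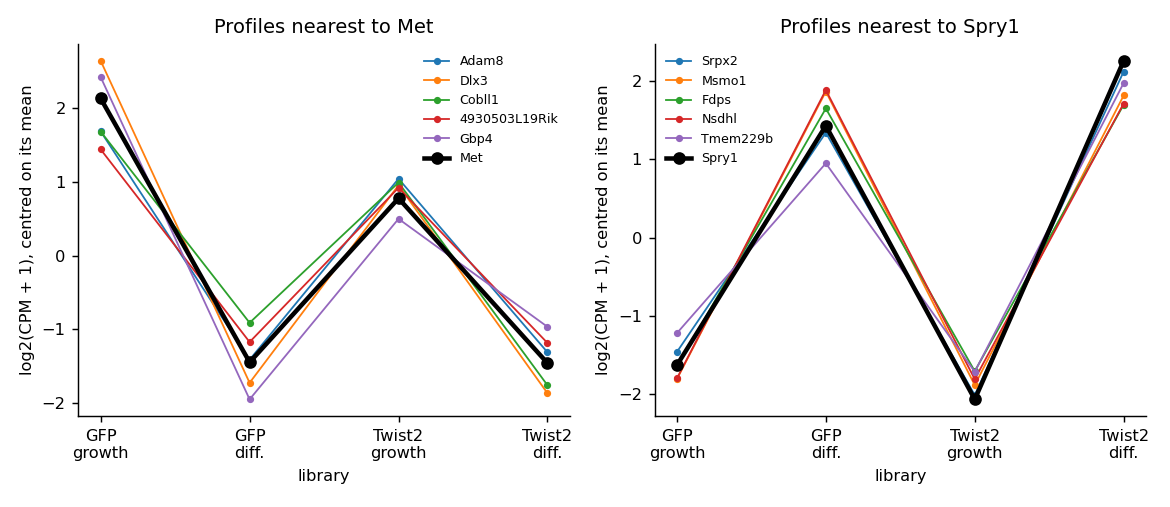
Profiles over the 4 libraries of Met (left, black) and Spry1 (right, black) with the 5 genes nearest to each; the y axis is log2(CPM + 1) minus the gene's own mean. Met and its nearest genes are high in GFP growth medium and low in both differentiation libraries, and Spry1 and its nearest genes are high in both differentiation libraries.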

How the data were processed

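RNA of 4 cultures was sequenced, 1 library a group. The authors deposited 1 table of CPM values, per the file headers, and 3 columns of log2 ratios against the GFP growth medium library. Those ratios matched log2 of CPM + 1 and served only as a check. The submitters' processing notes name GRCm38 (mm10), TopHat2 2.0.0 and DESeq2 1.6.3 without their roles. The counter and its strand setting are not named in the sources used here. The values show how genes were selected: each reached 10 CPM in 2 or more libraries, and 1 or more of its 3 log2 ratios was 1 or more in size. A value of 1 read was found for each library, and 100% of values were whole multiples of it within 0.01 reads, which gave reads and library totals of 9744075, 9235281, 11068073 and 12362290 (GFP growth, GFP differentiation, Twist2 growth, Twist2 differentiation).

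A pseudocount of 1 CPM was added before taking log2, so changes of low genes are understated. No count model was fitted. The interval of a difference of responses is a normal approximation from the read counts. Exon lengths and positions are from GENCODE M21 and hold overlapping exons once. The code was tested on simulated counts. Named genes are the 10 of the rule, all listed receptors, ligands and inhibitors, and up to 4 called genes per comparison of the 3 other lists, and the 5 nearest profiles of Met and of Spry1; Mapk3, Egr1 and Sdc1 were named after their values were seen. The values of 1 ligand are not reported here. Alternatives were other pseudocounts, scalings, CPM minimum and fold. Members and lists were chosen with earlier results of these data known. Python 3.11.15, scipy 1.17.1 and pandas 2.3.3 were used.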

Additional observations from a re-analysis of the deposited data

Results flagged for a closer look

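For 18 of 92 genes of the 6 lists (19.6%, beside 313 of 3760 listed genes, 8.32%) the GFP and Twist2 cells moved in opposite directions on differentiation, with both counting intervals clear of equality and responses at least 1 apart on the log2 scale. With 1 library a group this difference was not tested. The Twist2 response minus the GFP response was 2.86 for Spry2, 2.03 for Egfr and 1.34 for Lrig1. Among the other receptors it was 2.38 for Ephb4, 2.32 for Ptk7, 2.31 for Ephb6, 1.94 for Ephb2 and 1.92 for Epha7. Among ligands it was 3.67 for Angpt4 and 2.85 for Pdgfc, and it was -2.07 for Fgf7, which was higher in GFP (1.29) and lower in Twist2 cells (-0.79). Co-receptors and proteases had 5.32 for Gfra1, 4.73 for Gpc6, 4.46 for Plat, 3.54 for Nrp1 and 1.72 for Sdc1. The kinases Braf (-1.53) and Rps6ka3 (-1.60) had the reverse order. Scaling to the unlisted reads gave both cells the same sign for Rps6ka3 alone among the 18. Only signs were compared under that scaling, not whether intervals stayed clear of equality. It shifted the median GFP ratio of all listed genes by 0.78, and some GFP ratios were near that size, as for Lrig1 (-0.83) and Epha7 (-0.96).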

How the results depend on the processing

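No paired analysis was possible because each group had 1 library, and for the same reason no replicate could be left out. Met and Spry1 kept their direction in both differentiation comparisons under all 4 other pseudocounts and scalings. With size factors Met was -3.22 in GFP differentiation and -1.11 in the growth medium comparison, and its difference of responses was 1.04. Under scaling to the unlisted reads Met was -2.79 in GFP and -1.97 in Twist2 differentiation and -0.59 in differentiation medium, with a difference of responses of 0.81, and Spry1 was 3.81 in GFP differentiation and 0.24 in differentiation medium, with a difference of 0.71. With a pseudocount of 5 CPM Spry1 was 2.53 in GFP and 3.59 in Twist2 differentiation. Counts over all genes moved by over 1.5 times as follows. Lower genes numbered 968 (size factors) and 646 (unlisted reads) in GFP differentiation, 604 (unlisted reads) in Twist2 differentiation and 241 (size factors) in growth medium. In differentiation medium 497 were higher and 1548 lower (unlisted reads). At 3-fold, higher and lower genes were 638 and 783, 562 and 365, 67 and 151, and 489 and 385 in the order GFP, Twist2, growth and differentiation medium. Over the 6 lists, lower genes were 24 in GFP differentiation and 31 in differentiation medium (unlisted reads), and higher genes in growth medium were 3 (5 CPM) and 9 (size factors). At 3-fold the lists held 17 higher in GFP differentiation, 10 lower in Twist2 differentiation, 3 higher and 5 lower in growth medium and 7 lower in differentiation medium. A 3-fold threshold calls fewer genes by construction, and the cause of the other shifts was not tested. Depth limits Egfr and Spry1 most, with 18 to 248 and 50 to 1352 reads.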
